A study of Mus musculus with 24 samples.

Results

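The genes of this report are the clustered histone genes of the mouse, which encode the linker histone H1 and the core histones H2A, H2B, H3 and H4. They were chosen by name: every row of the deposited tables whose GENCODE M21 symbol begins with Hist1h, Hist2h, Hist3h or Hist4h, with symbols ending in -ps left out. The rule found 67 members among the 48795 gene rows of each table, 6 of them H1, 20 H2A, 16 H2B, 12 H3 and 13 H4 genes. Testing required a value of 10 or more in 4 or more of a table's 12 libraries, which kept 43 members in epithelial and 35 in mesenchymal cells. All 35 were also tested in epithelial cells, and 24 members were tested in neither. Hist1h2bm and Hist1h2bh carry symbols of the same kind and were not analysed here.

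Clustered histone genes are transcribed mainly while a cell copies its DNA, when new chromatin needs histones in bulk. Their messages end in a short stem-loop instead of a poly(A) tail: the stem-loop binding protein holds that hairpin, and the U7 small nuclear ribonucleoprotein guides the cut just behind it. Libraries made from total RNA, as here, can hold such messages, whereas selection for poly(A) loses most of them. Cells that have left the cell cycle keep some clustered histone messages, among them longer ones that do carry a poly(A) tail.

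The mice were Balb/c females, 8 weeks of age. There were 3 treatments with 4 mice each. Depleted mice received 13 Gy aimed at the lungs and daily injections of anti-Ly6G, which binds neutrophils. Irradiated mice received the same 13 Gy with a control IgG, and sham mice were sham-irradiated and given the control IgG. Lungs were collected 7 days after irradiation and digested. Cells negative for CD45, CD31 and Ter119, found on leukocytes, endothelium and red cells, were then divided by EpCAM: epithelial cells carry it and mesenchymal cells do not (the cell type entries name CD31, while the protocol text writes CD45 in its place). The sort removed leukocytes, so the loss of neutrophils itself was not measured in these libraries. Each of the 24 libraries holds RNA depleted of ribosomal RNA, and the tables, 1 per compartment, give counts per gene, scaled by a factor for each library. Values below are these normalised counts, and no level was compared between the tables.

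Libraries held 7366672 to 13373329 reads, of which 2754 to 6167 fell on the 67 members, a share of 0.0367% to 0.0512%. In epithelium every depleted library (8159062 to 9267632 reads) was shallower than every sham (9776113 to 11710964) and every irradiated library (10884703 to 13373329). In mesenchyme the read numbers of every pair of groups overlapped. The part of read number in the epithelial calls was not tested. A count of 0 allows for up to 3 reads, equal to 2.36 to 3.81 on the normalised scale of the single libraries (counting error only). Summed over their list of 12, epithelial markers stood at 459930 to 551337 in the epithelial libraries, and the 12 mesenchymal markers at 137299 to 235038 in the mesenchymal libraries, none of either list at 0. Other cell types left a trace: the 15 leukocyte markers summed to 2513 to 3452, 3230 to 4264 and 2973 to 3365 in depleted, irradiated and sham epithelial libraries, and to 1056 to 2311, 1393 to 3061 and 496 to 1357 in the mesenchymal ones. In a bulk library, fewer cells of a type and less RNA per cell cannot be told apart.

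The hairpin sequence marks out this gene family in the annotation. The 16-base histone stem-loop, with some stem bases and 1 loop base left free, was searched on the sense strand of GENCODE M21 transcripts and stood in those of 42 of the 67 members, against 89 of all 55450 annotated genes (0.161%). A transcript without it may simply be annotated too short, so nothing follows from a missing match. The 26-base sites of the members that changed are shown first because they are the processing signal of these messages. Capitals mark the hairpin, read 5′ to 3′ from GENCODE M21 transcripts of GRCm38.
Hist1h1c: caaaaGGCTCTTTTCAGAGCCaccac
Hist1h1d: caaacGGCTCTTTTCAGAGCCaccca
Hist1h2bg: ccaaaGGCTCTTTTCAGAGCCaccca
Hist1h2bk: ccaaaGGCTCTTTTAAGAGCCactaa
Hist2h3c2: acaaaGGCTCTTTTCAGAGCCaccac
Hist1h4n: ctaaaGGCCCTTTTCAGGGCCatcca
Hist4h4: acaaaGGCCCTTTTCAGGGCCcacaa
The hairpin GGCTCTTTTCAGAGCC was the most common, in 24 members. The H4 genes differed in the stem: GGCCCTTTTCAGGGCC stood in 7 members, all H4, and so did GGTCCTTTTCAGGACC in 2. Hist1h2bk carried the form with an A in the loop, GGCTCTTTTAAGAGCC, which was found in 6 members. No match was found in the annotated transcripts of Hist1h2bc, Hist1h2bl, Hist1h2af and Hist1h4a.

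Upstream, the members shared the short motifs known from histone promoters. RefSeq promoters (GRCm38.p6, 250 bases before to 50 after the start) were found for 60 members, and motifs were counted on both strands, overlaps allowed. TATAAA stood in 35 of them (58.333%, against 13.616% of all 32851 promoters) and CCAAT in 51 (85.0%, against 37.408%). CCAAT was in every matched H1, H2A, H2B and H3 promoter but in 3 of the 12 H4 promoters. ATTTGCAT, the octamer bound by Oct-1, stood in 12 (20.0%, against 1.735%), of which 7 were H2A and 5 H2B. AAACACA, known as the H1 box, stood in 8 (13.333%, against 7.184%), 5 of them among the 6 H1 promoters. Below are the 200 bases before the start for Hist1h1c, Hist1h2bg and Hist4h4, which were called in mesenchymal cells. Hist1h2ac, not tested in mesenchymal cells, is shown as the neighbour of Hist1h2bc. Hist1h1d, also called in mesenchyme, is not shown. Capitals mark these 4 motifs on either strand.
Hist1h1c, chr13:23738607-23738806, plus strand: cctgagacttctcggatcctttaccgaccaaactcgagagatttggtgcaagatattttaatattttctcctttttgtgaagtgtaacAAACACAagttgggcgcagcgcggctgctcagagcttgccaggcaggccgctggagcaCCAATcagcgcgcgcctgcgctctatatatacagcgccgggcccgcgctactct
Hist1h2bg, chr13:23571200-23571399, plus strand: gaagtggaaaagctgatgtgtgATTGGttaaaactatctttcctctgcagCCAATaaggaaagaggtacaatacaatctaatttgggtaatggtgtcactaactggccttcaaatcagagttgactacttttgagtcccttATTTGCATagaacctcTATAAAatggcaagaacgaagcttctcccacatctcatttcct
Hist1h2ac, chr13:23683960-23684159, minus strand: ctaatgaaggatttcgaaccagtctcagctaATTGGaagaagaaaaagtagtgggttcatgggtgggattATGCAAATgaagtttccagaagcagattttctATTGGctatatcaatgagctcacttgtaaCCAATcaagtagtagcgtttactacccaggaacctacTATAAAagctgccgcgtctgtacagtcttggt
Hist4h4, chr6:136804432-136804631, minus strand: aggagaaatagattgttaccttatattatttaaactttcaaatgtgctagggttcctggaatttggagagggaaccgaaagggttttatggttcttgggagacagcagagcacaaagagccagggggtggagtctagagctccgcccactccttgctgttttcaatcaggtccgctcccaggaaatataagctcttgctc
The H1 gene Hist1h1c shows the H1 box and CCAAT, and the H2B gene Hist1h2bg shows CCAAT, the octamer and TATAAA. Hist1h2bc had no promoter entry, but the Hist1h2ac window ends just before the Hist1h2bc start at 23684199, which lies on the other strand, so the pair faces away from one shared stretch. In the Hist4h4 promoter none of the 4 motifs was found.

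Hist1h1c, a linker histone gene, had the highest count in both tables, with a mean over the 12 libraries of 768 (range 612 to 1080.4) in epithelial and 609 (461 to 834) in mesenchymal cells. In epithelial cells 5 members, Hist1h1c, Hist1h4d, Hist1h1e, Hist1h4c and Hist1h4h, carried 52.1% of all member counts. In mesenchymal cells Hist1h1c, Hist1h4d, Hist1h4c, Hist1h1e and Hist2h2aa2 carried 49.4%. Hist1h4d was chosen here after its values were seen. Per kilobase of exon the order was another: among epithelial members Hist1h4h led with a level of 749 per kb, before the H2A gene Hist2h2aa2 with 561, Hist1h4c with 526 and Hist1h1c with 492. In mesenchymal cells the levels were 432 per kb for Hist2h2aa2, 417 for Hist1h4h, 397 for Hist1h4a and 391 for Hist1h1c, and the ranges of these 4 over the libraries overlapped. H2B and H3 genes stood lower, the highest being Hist2h2bb (267 and 243 per kb in the epithelial and mesenchymal table) and Hist1h3e (99.6 per kb, epithelial) or Hist1h3a (57.2 per kb, mesenchymal). Hist2h2aa1 and Hist2h2aa2 are near-identical: none of the 50-base windows of Hist2h2aa2 was its own, so its level is that of the pair. Antisense genes cover all of Hist2h2aa2, Hist2h2aa1, Hist2h2bb and Hist2h3b, and since it is not given in the sources used here whether counting used the strand, their levels may hold antisense reads. Hist1h2al, which the annotation classes as a processed pseudogene, ranked among the H2A genes with 309 and 259 per kb, with 32.4% of windows its own.

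**Figure D1:**
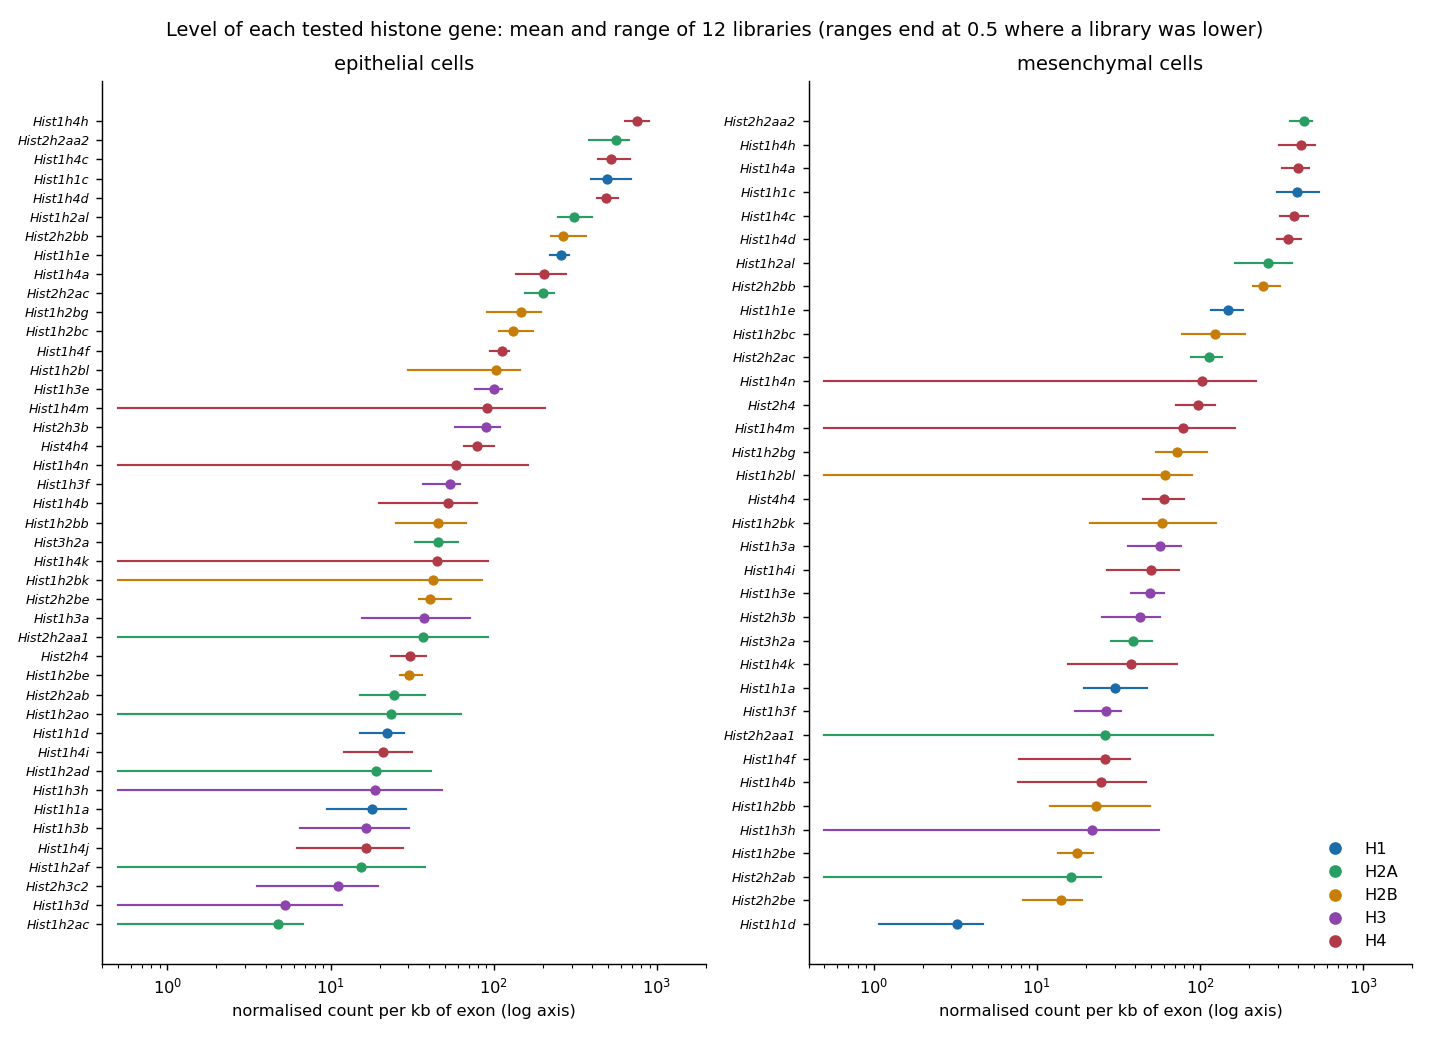
Mean normalised count per kb of exon (dots, log axis) and range over the 12 libraries (lines) of each tested member in epithelial (left, 43 members) and mesenchymal cells (right, 35 members), coloured by histone family. Hist1h4h (749 per kb) tops the epithelial and Hist2h2aa2 (432 per kb) the mesenchymal list, while members with a library at 0, such as Hist1h4m and Hist1h4n, have lines that run to the left edge at 0.5.

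The filter sat in a range where members were close together. Hist1h2af, with an epithelial mean of 6.16, was tested, while Hist1h2ab, with a higher mean, was not. In mesenchymal cells Hist2h2ab (mean 7.24) was tested and Hist2h3c2 (mean 8.59) was not. In every tested member, the libraries that reached the filter value came from more than 1 group. Some members still depended on a single group: epithelial Hist2h3c2 and Hist1h2af, for example, would not have passed without the sham group. Hist1h2ba, Hist1h2aa and Hist2h3c1 were listed at 0 in every library of both tables, and Hist1h2aj in every mesenchymal library.

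Summed by family, histone messages overlapped between most groups, with 2 family sums that set a group apart from both others. The linker histone sum was lowest in irradiated epithelium: it was 1489, 1392, 1591 and 1798 in depleted, 1232, 1349, 1269 and 1309 in irradiated and 1556, 1422, 1521 and 1453 in sham libraries. Every irradiated epithelial library lay below every depleted and every sham library. The mesenchymal H2B sum was 556, 536, 564 and 576 in depleted, 434, 519, 429 and 451 in irradiated and 370.2, 436, 375 and 469.8 in sham libraries, so all depleted libraries stood above all others. The mesenchymal H3 sum was 168 to 197 in depleted, 148 to 177 in irradiated and 143 to 154 in sham libraries. Depleted and sham libraries did not overlap, and irradiated libraries overlapped both. All members together summed to 3736 to 4172 in depleted, 3310.2 to 3669.8 in irradiated and 3392 to 3945 in sham mesenchyme. Depleted and irradiated libraries did not overlap there, whereas sham overlapped both. In epithelium the sums over all members were 4976 to 5357, 4471 to 4990.0 and 4954 to 5292 in depleted, irradiated and sham libraries, with every pair of groups overlapping. These sums are a description and were not tested.

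**Figure D2:**
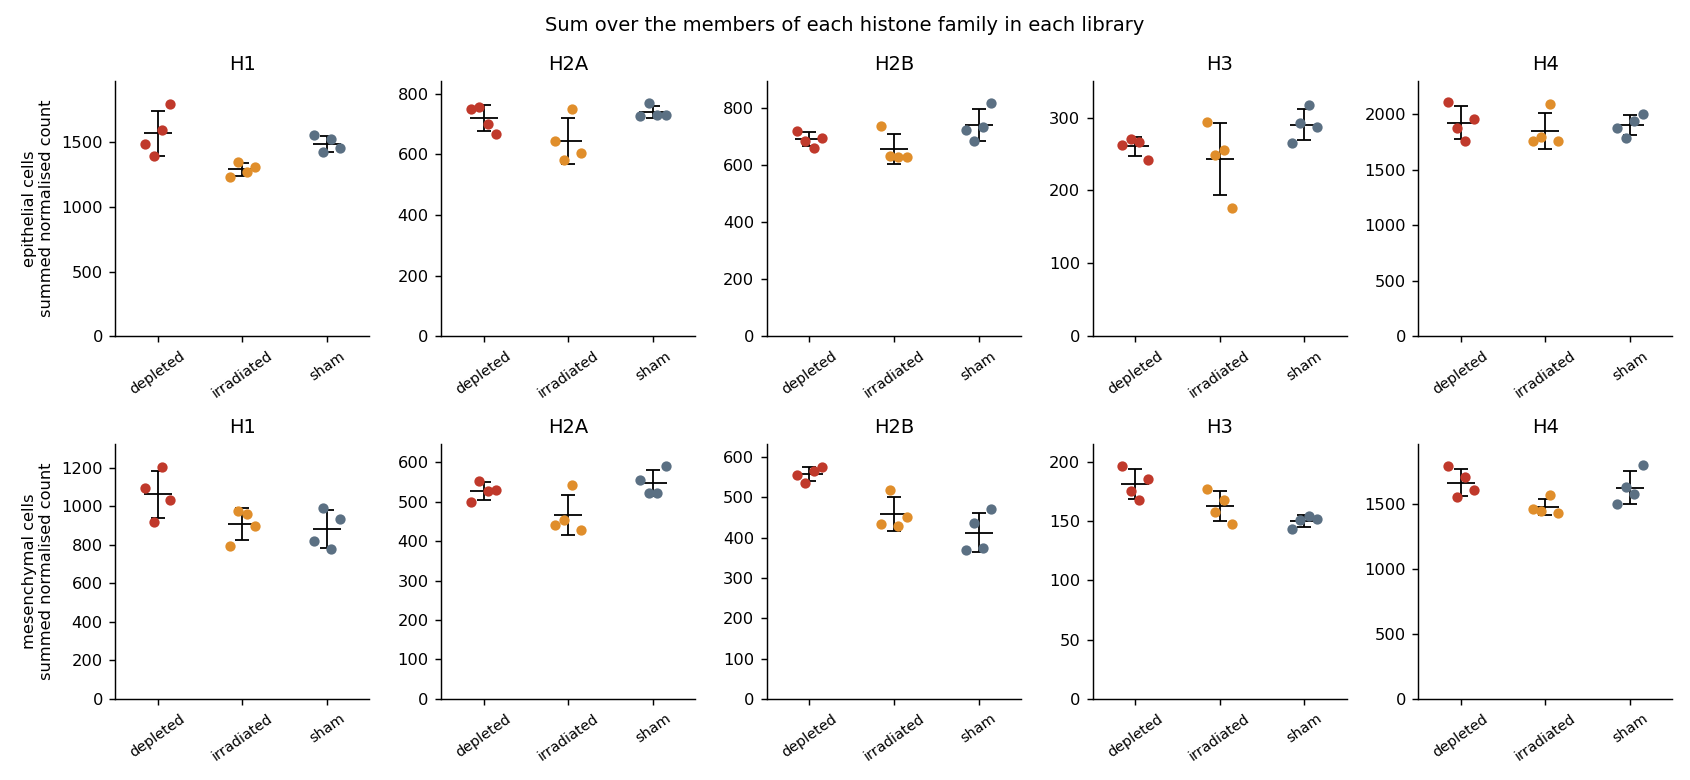
Summed normalised count of the members of each histone family (columns) in each library, epithelial cells above and mesenchymal cells below, with 4 dots per group for depleted, irradiated and sham mice and bars for mean and SD. The irradiated epithelial H1 sums (1232 to 1349) lie below both other groups, and the depleted mesenchymal H2B sums (536 to 576) lie above both other groups.

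Irradiated against sham epithelium asks what irradiation alone left behind at day 7. None of the 43 tested members passed the adjusted p of 0.05 by limma, edgeR or DESeq2, while 3.14% of all 16626 genes did by limma (Benjamini-Hochberg over all genes). At an unadjusted limma p under 0.05 there were 6 members, all lower, beside 14.3% of all genes. Most fitted changes were negative: 35 of 43 members, with a median log2 change of -0.24, against -0.01 over all genes. The mean log2 level of the leukocyte markers was 5.67 ± 0.47 in irradiated and 4.32 ± 0.66 in sham libraries (SD, n = 4 each, exact two-sided permutation p = 0.0286), with 5 of 14 tested higher, beside 2.26% of all genes higher. Their sums, 3230 to 4264 in irradiated and 2973 to 3365 in sham libraries, overlapped. With the mean log2 level as a covariate the median of the members was -0.10. Because the level differed between the treatments, the covariate can take up treatment differences too and cannot separate leukocytes from treatment. The 12 mesenchymal markers also stood apart, at sums of 7638 to 8463 in irradiated and 6364 to 7062 in sham libraries, and their part in the histone changes was not tested. Hist1h1e, a linker histone gene, had 432, 428, 500.1 and 481 in irradiated libraries, against 558, 536, 559 and 518 in sham libraries. The groups did not overlap, yet the log2 change of -0.24 ± 0.07 (SE, 4 against 4 libraries) had an limma adjusted p of 0.0789. It passed without irradiated replicate 3, and Hist1h1d passed without irradiated replicate 1, with limma adjusted p-values of 0.0447 and 0.0455. By family the medians were -0.31 for H1, -0.23 for H2A, -0.32 for H2B, -0.17 for H3 and -0.24 for H4. The largest fitted falls were those of Hist2h2aa1 (-2.15) and Hist1h2af (-1.37), both with libraries at 0 in the irradiated group and with limma adjusted p-values of 0.626 and 0.433. Summed with its copy Hist2h2aa2, Hist2h2aa1 stood at 250.5 to 343 in irradiated and 314 to 350.2 in sham libraries.

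Depleted against irradiated epithelium asks what the Ly6G antibody added to irradiation. No member of 43 was called by limma or edgeR and 2 by DESeq2, against 0.475% of all genes by limma (0.204% higher and 0.271% lower) and 1.74% by DESeq2. At an unadjusted limma p under 0.05 there were 10 members, 5 higher and 5 lower, beside 12.4% of all genes, and the median log2 change was 0.10, against 0.00 over all genes. The 2 that DESeq2 called moved in opposite directions. The linker histone gene Hist1h1c stood at 809, 749, 876 and 1080.4 in depleted libraries, against 612, 775, 621 and 706 in irradiated libraries (log2 change 0.37 ± 0.10, limma adjusted p = 0.133). Hist1h2bl, an H2B gene, stood at 23.6, 26.7, 11.3 and 32.3 in depleted libraries, against 47.0, 44.9, 43.7 and 42.6 in irradiated libraries (log2 change -0.99 ± 0.24, limma adjusted p = 0.0725). Hist1h2bl did not overlap between the groups and Hist1h1c did. By limma Hist1h2bl passed without depleted replicate 4 (adjusted p = 0.0299), Hist1h4a without depleted replicate 2 (0.0311) and Hist1h4n without depleted replicate 1 (0.00124).

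Depleted against sham epithelium was the comparison with most calls. Of 43 members 5 fell and none rose, with edgeR calling 4 and DESeq2 5. That is 11.6% lower, beside 4.76% of all genes lower and 6.52% higher by limma (11.3% in either direction). As none rose, the members' share in either direction was also 11.6%, close to the background. The median log2 change of the members was -0.09, against -0.01 over all genes, so the calls concern single members. They belonged to H2A, H2B, H3 and H4, and none of the 4 tested linker histone genes was among them. Hist2h3c2 and Hist1h2af passed the filter only with the sham group, where they were high, so their calls are not independent of that filter. Of the 5 that fell, 4 have under 50% of their 50-base windows to themselves, meaning that most stretches of that length occur in another annotated gene too. DESeq2 called Hist1h2bk (adjusted p = 0.0239) in place of Hist1h4n, and limma called it without depleted replicate 4 (0.00626), Hist1h4m without irradiated replicate 2 (0.0235), and Hist1h1e with length and GC trends removed (0.0312).

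Hist2h3c2 (ENSMUSG00000081058, GRCm38 chromosome 3, 96238108 to 96239127, 1 exon), an H3 gene, had the smallest limma adjusted p of the members that fell. It had 5.61, 5.08, 6.77 and 3.59 in depleted, 9.79, 14.2, 9.71 and 9.65 in irradiated and 15.6, 18.0, 18.8 and 19.8 in sham libraries. All 3 groups stood apart, in that order. Only the sham libraries and the irradiated library at 14.2 reached the filter value of 10. The gene was thus tested through the group where it was high, and its fall is not independent of that filter. The log2 change, depleted against sham, was -1.62 ± 0.30 (limma, adjusted p = 0.00199), and the call held without any single library. The gene shares 63.5% of its windows with other genes, and the sum of the row with the rows it shares most with (Hist2h3c1, Gm20634 and Hist2h3b) was 93.7 to 137 in depleted and 135 to 153 in sham libraries, which overlapped.

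Hist1h2bl (ENSMUSG00000094338, chromosome 13, 21715763 to 21716143), an H2B gene, had the depleted values given above, against 47.8, 45.6, 50.01 and 55.2 in sham libraries. The groups did not overlap, and the log2 change was -1.14 ± 0.24 (limma, adjusted p = 0.00522), a call that held without any single library. Only 17.2% of its windows are its own. Summed with Hist1h2br, Hist1h2bq and Hist1h2bk it stood at 29.2, 40.7, 16.9 and 61.0 in depleted, 74.4, 76.4, 59.1 and 75.6 in irradiated and 83.9, 87.0, 77.7 and 79.1 in sham libraries. The summed counts thus also lay lower in every depleted than in every sham library, at a ratio of means of 0.451. With the mean level of the leukocyte markers as a covariate, the limma adjusted p was 0.186 for Hist1h2bl and 0.0698 for Hist2h3c2. That level also differed between depleted and sham libraries, so the covariate cannot separate leukocytes from treatment.

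Hist1h4a (ENSMUSG00000060093, chromosome 13, 23760692 to 23761230), an H4 gene, had 78.6, 113, 73.4 and 75.4 in depleted, 125, 135, 121 and 109 in irradiated and 119, 149.6, 103 and 113 in sham libraries. Depleted replicate 2 overlapped the sham group and the other depleted libraries lay below it. The log2 change was -0.51 ± 0.15 (limma, adjusted p = 0.0296). It is the only one of the 5 with most windows its own, 59.6%. The limma adjusted p was above 0.05 without sham replicates 1 (0.0517), 2 (0.106) or 4 (0.0501), without depleted replicates 1 (0.0784), 3 (0.0747) or 4 (0.0845), and with length and GC trends removed (0.0704). Summed with Hist1h4k, Hist1h4b and Hist1h4h it was 428 to 526 in depleted and 479.6 to 524 in sham libraries.

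Hist1h2af (ENSMUSG00000061991, chromosome 13, 23533906 to 23534304), an H2A gene of low count, had 0, 2.54, 2.26 and 0 in depleted, 13.7, 5.52, 0 and 3.22 in irradiated and 12.7, 4.24, 15.2 and 14.6 in sham libraries. Depleted libraries were all at or under the level of 3 reads. Without the sham group, where it was high, the gene would not have passed the filter. The fitted log2 change of -2.65 ± 0.74 (limma, adjusted p = 0.0276) depends at this level on the 1 added before the logarithm. The limma adjusted p was above 0.05 without sham replicates 1 (0.0635), 3 (0.0878) or 4 (0.0781) and without depleted replicates 1 (0.0814) or 4 (0.0795). With its sharers Hist1h2ad, Hist1h2ah and Hist1h2ai the sums overlapped, at 9.57 to 25.96 in depleted and 12.7 to 36.4 in sham libraries.

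Hist1h4n (ENSMUSG00000069305, chromosome 13, 21831767 to 21832196), an H4 gene, has a near-identical copy. It had 25.8, 0, 0 and 0 in depleted, 22.5, 70.1, 8.90 and 18.5 in irradiated and 22.4, 37.1, 52.7 and 45.8 in sham libraries, and was called lower at a log2 change of -4.09 ± 1.05 (limma, adjusted p = 0.0333). Its copy Hist1h4m, with which it shares 83.2% of its windows, had 28.1, 57.2, 75.6 and 82.6 in depleted, 37.2, 0, 34.0 and 39.4 in irradiated and 31.2, 8.49, 15.2 and 27.1 in sham libraries, a log2 change of 1.57 ± 1.14 (adjusted p = 0.449). In each epithelial library with Hist1h4n or Hist1h4m at 0, the other gene of the pair was above 0. The fitted size depends on the 1 added before the logarithm. The sum of the pair was 53.9, 57.2, 75.6 and 82.6 in depleted, 59.7, 70.1, 42.9 and 57.9 in irradiated and 53.7, 45.6, 67.9 and 72.9 in sham libraries, and was not lower in depleted epithelium (ratio of means 1.12). Neither edgeR nor DESeq2 called Hist1h4n (adjusted p of 0.171 and 0.249), and limma lost it without sham replicates 1 (0.0504), 2 (0.072), 3 (0.0815) or 4 (0.0789) and without depleted replicates 2 (0.0855), 3 (0.082) or 4 (0.105).

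**Figure D3:**
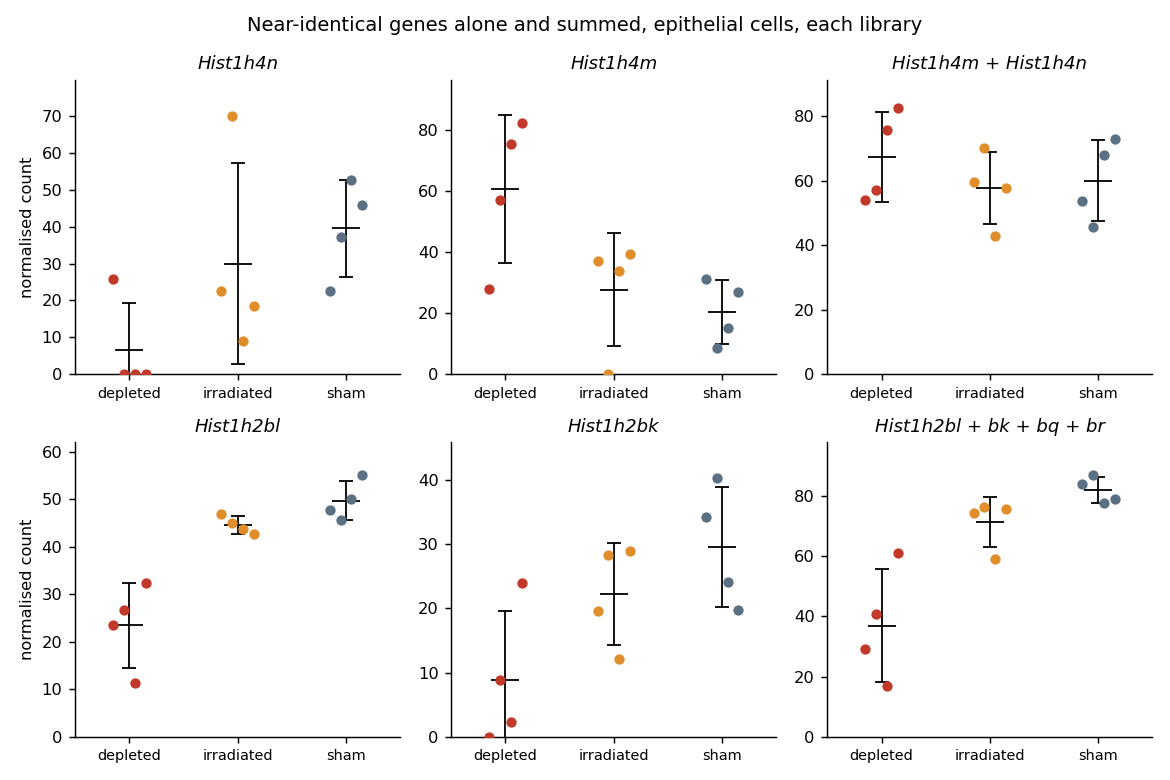
Normalised count of near-identical genes in each epithelial library, alone and summed: Hist1h4n, Hist1h4m and their sum above, Hist1h2bl, Hist1h2bk and the sum over Hist1h2bl, Hist1h2bk, Hist1h2bq and Hist1h2br below, for depleted, irradiated and sham mice (bars: mean and SD, cut at 0). The H4 pair sums to 53.9 to 82.6 in depleted and 45.6 to 72.9 in sham libraries, which overlap, while the H2B sum is 16.9 to 61.0 in depleted and 77.7 to 87.0 in sham libraries, which do not.

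Several other measures moved between the same epithelial groups, and their part in the histone calls was not tested. The mean log2 level of the leukocyte markers was 5.43 ± 0.23 in depleted and 4.32 ± 0.66 in sham libraries (SD, n = 4 each, exact two-sided permutation p = 0.0286, the smallest that 70 assignments allow), with 5 of 14 tested higher, beside 6.52% of all genes higher. Their sums, 2513 to 3452 in depleted and 2973 to 3365 in sham libraries, overlapped, so the sum did not show this rise. The 12 mesenchymal markers summed to 8947 to 10499 in depleted, 7638 to 8463 in irradiated and 6364 to 7062 in sham libraries. Endothelial markers summed to 2506 to 3517 in depleted and 1713 to 2277 in sham libraries, and macrophage markers to 706 to 948 and 269 to 522. Sums of neutrophil, lymphocyte, and erythroid and platelet markers overlapped between depleted and sham libraries. Of the other RNAs that lack a poly(A) tail, 6 of 9 tested fell and none rose in depleted against sham epithelium, against 4.76% of all genes that fell. They include Rnu12, the U12 spliceosomal RNA, with 29.7 ± 9.75 in depleted and 87.5 ± 11.4 in sham libraries (log2 change -1.58 ± 0.28, limma adjusted p = 0.00276), and Scarna10, a Cajal body RNA, with 299 ± 115 and 779 ± 85.9 (-1.46 ± 0.25, adjusted p = 0.00572). Snora73b, Scarna2, Rny1 and Rny3 also fell. The abundant Rpph1 and Rmrp, the RNA parts of RNase P and RNase MRP, did not pass, with log2 changes of 0.06 and 0.02.

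In irradiated against sham mesenchyme 1 of 35 members was called, Hist4h4 (ENSMUSG00000096010, chromosome 6, 136801553 to 136804415), the only gene of the Hist4 cluster. That is 2.86% lower beside 1.15% of all genes lower and 2.64% higher (3.80% in either direction), and edgeR and DESeq2 made the same call. Hist4h4 had 135, 129, 180.0 and 149 in irradiated libraries, against 188, 203, 199.9 and 228 in sham libraries, with no overlap. Depleted libraries, at 193.7, 164, 158 and 155, overlapped both groups. The log2 change was -0.47 ± 0.12 (limma, adjusted p = 0.0353). The adjusted p was above 0.05 without sham replicates 1 (0.0518), 3 (0.0962) or 4 (0.0879), without irradiated replicates 1 (0.0766), 2 (0.123) or 4 (0.0606), and with the leukocyte covariate (0.761). The leukocyte markers averaged 6.29 ± 0.48 in irradiated and 5.05 ± 0.62 in sham libraries on the log2 scale (SD, n = 4 each, exact two-sided permutation p = 0.0286), and 3 of 14 tested rose. As they differed between these groups, the covariate cannot separate leukocytes from treatment, and their part in the call was not tested otherwise. The 12 epithelial markers summed to 3948 to 6558 in irradiated and 1845 to 4065 in sham mesenchyme, 1 of 11 tested rose (Krt8), and their part was not tested. The median log2 change of the 35 members was -0.05, against -0.01 over all genes.

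In depleted against irradiated mesenchyme none of 35 members was called by limma, edgeR or DESeq2, against 2.69% of all genes by limma (2.02% higher and 0.674% lower), and 5 had an unadjusted limma p under 0.05, all higher, beside 17.9% of all genes. The fitted changes leaned upwards: 30 of 35 were positive, with a median log2 change of 0.18, against 0.00 over all genes. The H2B median was the highest, 0.36. Hist1h2bg, an H2B gene, had 50.2, 68.4, 60.9 and 48.4 in depleted libraries, against 40.2, 34.1, 41.7 and 40.2 in irradiated libraries, with no overlap (log2 change 0.52 ± 0.16, limma adjusted p = 0.101). Hist1h4h, an H4 gene, also did not overlap, with 239, 217, 232 and 203 in depleted libraries, against 173, 179, 190.2 and 202.5 in irradiated libraries (0.26 ± 0.11, adjusted p = 0.207).

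In depleted against sham mesenchyme 4 members rose and none fell: the linker histone genes Hist1h1c and Hist1h1d and the H2B genes Hist1h2bc and Hist1h2bg. That is 11.4% of 35 members higher, beside 8.51% of all genes higher and 6.70% lower (15.2% in either direction), a share close to the background. The tools edgeR and DESeq2 each called 3 of them, all but Hist1h1d. The median log2 change over the 35 members was 0.07, against -0.01 over all genes. The leukocyte markers averaged 5.91 ± 0.50 in depleted and 5.05 ± 0.62 in sham libraries on the log2 scale (SD, n = 4 each, exact two-sided permutation p = 0.0857), with 2 of 14 tested higher. With them as a covariate limma called 2 members, and Hist1h1d (0.449) and Hist1h2bg (0.137) lost their calls. The markers leaned higher in depleted libraries, so the covariate can also take up part of the treatment difference. Of 11 tested epithelial markers 4 rose (Krt18, Krt8, Cdh1 and Elf3), with a median log2 change of 0.87 over the list and sums of 3414 to 5279 in depleted and 1845 to 4065 in sham mesenchyme. Of the 12 mesenchymal markers 2 fell, Mfap5 and Pdgfrb, and the part of either list in the 4 histone calls was not tested. Hist1h4h, at 239, 217, 232 and 203 in depleted and 144, 193, 191 and 190.4 in sham libraries, did not overlap but missed the threshold (0.32 ± 0.11, adjusted p = 0.0538).

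Hist1h2bc (ENSMUSG00000018102, chromosome 13, 23684199 to 23692908), annotated as a transcript of 2 exons, had 177, 157, 190.4 and 217 in depleted, 115.5, 172, 136 and 124 in irradiated and 89.3, 99.3, 95.9 and 142 in sham libraries. Depleted and sham libraries did not overlap, and irradiated libraries overlapped both. The log2 change, depleted against sham, was 0.80 ± 0.16 (limma, adjusted p = 0.00285). This was the only one of the 11 member calls that held under every alternative run, with adjusted p-values of 0.000154 to 0.0128. Hist1h2bg (ENSMUSG00000058385, chromosome 13, 23571396 to 23572013) had the depleted values given above, against 38.5, 38.1, 33.3 and 41.6 in sham libraries (0.57 ± 0.16, adjusted p = 0.0272). It lost its call without sham replicates 1 (0.052) or 3 (0.0857) and without depleted replicates 2 (0.0925) or 3 (0.0585), and with length and GC trends removed (0.106). Hist1h2bc, Hist1h2bg and Hist1h2bk share windows, and the sum of the 3 was 259, 248, 286 and 325 in depleted, 187, 245, 188 and 190.3 in irradiated and 138, 157, 151 and 210.4 in sham libraries, so depleted libraries lay above all others.

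Hist1h1c (ENSMUSG00000036181, chromosome 13, 23738808 to 23740367), 91.5% of whose windows are its own, had 734, 588, 834 and 714 in depleted, 511, 632, 606 and 591.5 in irradiated and 498, 570.1, 461 and 573 in sham libraries. Every depleted library lay above every sham library, if narrowly. The log2 change was 0.44 ± 0.10 (limma, adjusted p = 0.00969), and it was called without any single library but not with length and GC trends removed (0.0927). Hist1h1d (ENSMUSG00000052565, chromosome 13, 23553262 to 23560686) was far lower, with 34.8, 29.7, 29.0 and 30.2 in depleted, 17.5, 34.1, 21.4 and 25.6 in irradiated and 18.3, 29.0, 8.08 and 9.98 in sham libraries. Its lowest depleted and highest sham value are close to each other, and the log2 change was 1.04 ± 0.33 (limma, adjusted p = 0.0423). Hist1h1d lost its call when 1 of 9 libraries was left out: sham replicates 1 (0.0523), 3 (0.14) or 4 (0.109), irradiated replicates 3 (0.0511) or 4 (0.0503), and depleted replicates 1 (0.108), 2 (0.0779), 3 (0.0575) or 4 (0.0764). Hist1h1e, the other abundant linker histone gene, had 282.5 ± 20.8 in depleted and 310.5 ± 35.1 in sham libraries (SD, n = 4 each) and was not called.

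**Figure D4:**
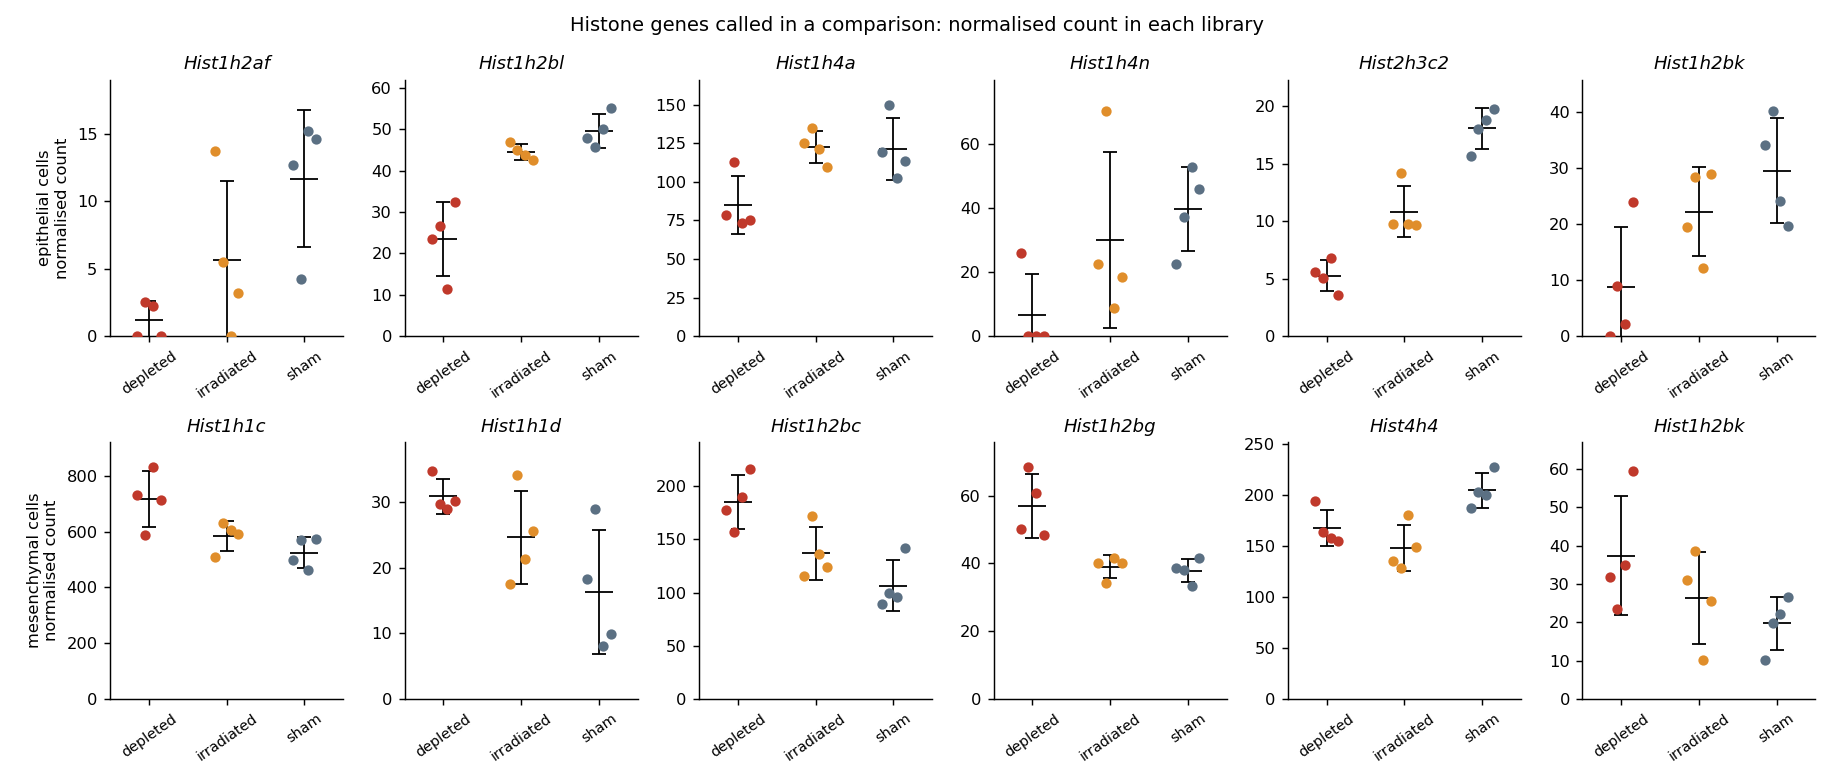
Normalised count in each library of every member called in a comparison, epithelial cells above and mesenchymal cells below, for depleted, irradiated and sham mice (4 dots per group; bars: mean and SD, cut at 0). In epithelium Hist2h3c2 is at 3.59 to 6.77 in depleted, 9.65 to 14.2 in irradiated and 15.6 to 19.8 in sham libraries, and in mesenchyme Hist1h2bc is at 157 to 217 in depleted and 89.3 to 142 in sham libraries.

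**Figure D5:**
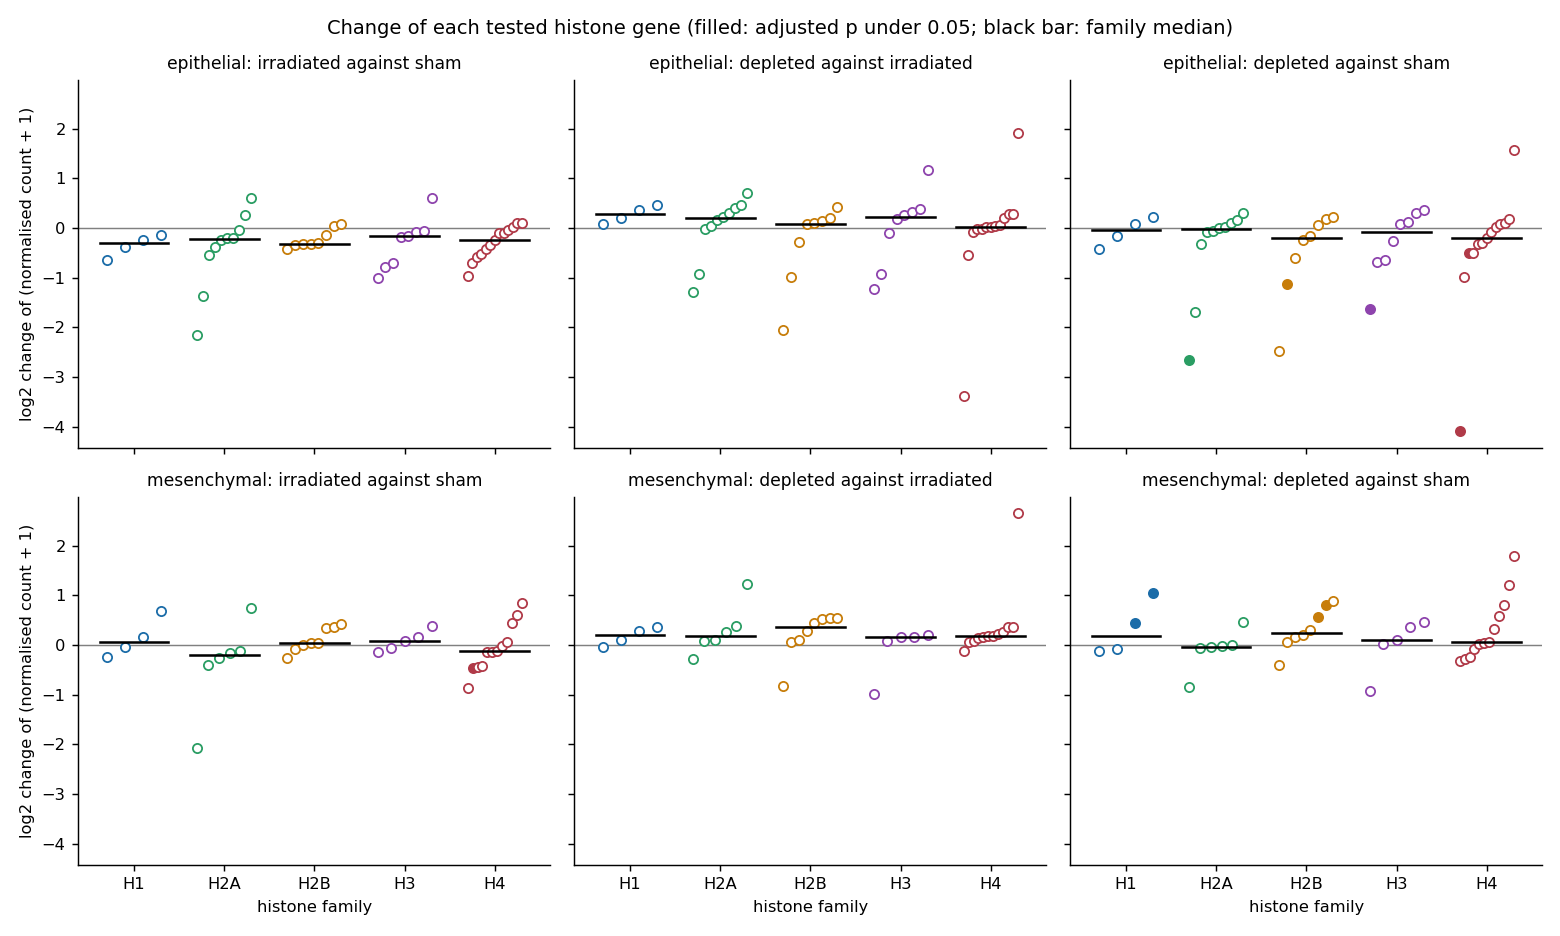
Fitted log2 change of each tested member (circles, filled where the limma adjusted p was under 0.05) by histone family, with the family median as a black bar, for the 3 comparisons in epithelial (above) and mesenchymal cells (below). The filled circles are 5 falls in depleted against sham epithelium, 1 fall in irradiated against sham mesenchyme and 4 rises in depleted against sham mesenchyme, while the medians of irradiated against sham epithelium lie at -0.17 to -0.32.

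The widest fitted changes mostly belonged to low or shared genes, and outside the calls none passed. In epithelium Hist2h2ab (H2A) had 10.1, 15.3, 6.77 and 15.6 in depleted, 8.81, 9.45, 10.5 and 16.9 in irradiated and 7.81, 11.7, 8.93 and 8.33 in sham libraries. Hist1h3b (H3) had 13.5, 8.90, 5.64 and 7.18 in depleted, 13.7, 6.30, 4.05 and 4.82 in irradiated and 13.7, 9.55, 16.1 and 18.7 in sham libraries. All groups overlapped for both genes. Hist1h3d (H3), at 2.39 to 11.4 in depleted, 0 to 14.7 in irradiated and 2.08 to 11.7 in sham libraries, Hist1h3a (H3), at 8.38 to 38.1, 10.4 to 30.3 and 10.6 to 28.3, Hist1h2ad (H2A), at 0 to 23.7, 4.82 to 23.5 and 0 to 16.7, and Hist1h3h (H3), at 0 to 13.2, 4.05 to 19.6 and 0 to 19.8, overlapped as well. Hist1h2ac, the H2A gene beside Hist1h2bc, had 14.6, 11.4, 16.9 and 9.57 in depleted, 0.979, 12.6, 12.9 and 12.9 in irradiated and 15.6, 15.9, 12.5 and 5.20 in sham libraries, and the low value of irradiated replicate 1 stands alone. In mesenchyme Hist1h4m had 54.3, 65.7, 38.7 and 30.2 in depleted, 1.03, 54.6, 25.4 and 0 in irradiated and 14.2, 34.8, 58.6 and 0 in sham libraries. Its copy Hist1h4n had 35.9, 20.7, 67.6 and 71.6 in depleted, 60.9, 12.5, 23.4 and 69.5 in irradiated and 35.5, 38.9, 0 and 94.8 in sham libraries. The pair summed to 90.2, 86.4, 106 and 102 in depleted, against 48.8 to 69.5 in irradiated libraries, which did not overlap, while sham libraries at 49.7 to 94.8 overlapped both. Mesenchymal Hist1h2bl was at 0 in depleted replicate 4 and at 31.9 to 34.2 in the other depleted libraries, against 20.3 to 32.9 in irradiated and 7.07 to 30.8 in sham libraries. Hist2h2aa1 (0 to 26.6, 0 to 9.28 and 0 to 70.7 in depleted, irradiated and sham mesenchyme), Hist1h3h (0 to 23.2, 4.07 to 14.4 and 3.04 to 14.1), Hist2h2ab (3.07 to 10.6, 3.09 to 10.98 and 0 to 8.32) and the H2B gene Hist1h2bb (10.2 to 25.2, 6.10 to 12.4 and 8.08 to 15.7) overlapped in every pair of groups.

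Whether a member responded differently in the compartments was tested as an interaction over all 24 libraries, for the 35 members tested in both. The 4 mice of a treatment gave the libraries of both compartments, and the fit treats these as independent. The value is the change in epithelium minus the change in mesenchyme. None passed for irradiated against sham (0.629% of 15092 genes by limma, 0.199% positive and 0.431% negative) or for depleted against irradiated (0.596%), by limma, edgeR or DESeq2, with 2 and 3 members at an unadjusted limma p under 0.05, beside 13.3% and 11.3% of all genes. Hist1h1d passed for irradiated against sham without mesenchymal sham replicate 2 (0.0148). For depleted against sham 1 member passed, Hist1h2bk, beside 3.03% of all genes more negative and 2.17% more positive in epithelium (5.21% in either direction). Hist1h2bk (ENSMUSG00000062727, chromosome 13, 22035870 to 22036345), an H2B gene, had 0, 8.90, 2.26 and 23.9 in depleted, 19.6, 28.4, 12.1 and 28.9 in irradiated and 34.1, 40.3, 24.1 and 19.8 in sham epithelium. In mesenchyme it had 31.8, 23.4, 34.8 and 59.5 in depleted, 30.9, 38.7, 10.2 and 25.6 in irradiated and 10.1, 19.9, 22.2 and 26.6 in sham libraries. Neither change was called within its compartment (-2.47 ± 0.81, limma adjusted p = 0.0785, and 0.88 ± 0.40, adjusted p = 0.153), and depleted and sham libraries overlapped in each. The difference of the changes was -3.35 ± 0.93 (limma adjusted p = 0.0371). The adjusted p was above 0.05 without epithelial sham replicates 1 (0.067), 2 (0.0718) or 3 (0.0538), epithelial depleted replicate 3 (0.0753), mesenchymal sham replicates 1 (0.0774) or 3 (0.0589) or mesenchymal depleted replicates 1 (0.0581) or 4 (0.0739). With 25.8% of its windows its own, Hist1h2bk shares reads with other H2B genes. The rows it shares most with, Hist1h2br, Hist1h2bq and Hist1h2bn, brought the sum to 18.6 ± 16.1 in depleted and 38.2 ± 6.63 in sham epithelium, which overlapped, and to 46.6 ± 17.4 in depleted and 26.6 ± 5.58 in sham mesenchyme, which did not (SD, n = 4 each). Leaving out single libraries added other members for depleted against sham: Hist1h4n without epithelial depleted replicate 1 (0.0149) or mesenchymal sham replicate 4 (0.041), Hist1h4a without epithelial depleted replicate 2 (0.0478), Hist1h1d without mesenchymal sham replicate 2 (0.0102), Hist1h2bc without mesenchymal sham replicate 4 (0.0352) and Hist1h2bl without mesenchymal depleted replicate 4 (0.0147).

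Genes that make, carry and accompany histone messages gave a background to these values. Of 22 tested genes that make histone messages, 1 fell in depleted against sham epithelium, beside 4.76% of all genes lower. In depleted against sham mesenchyme 1 fell, beside 6.70% of all genes lower. At an unadjusted limma p under 0.05 there were 5 and 3, beside 24.7% and 29.2% of all genes. None passed in the other 4 comparisons by limma, edgeR or DESeq2, beside 0.475% to 3.80% of all genes by limma. Each had 2 or 3 genes at an unadjusted limma p under 0.05, beside 12.4% to 21.0% of all genes. DESeq2 did not call the mesenchymal gene. The epithelial gene that fell was Snrpd3, an Sm protein also found in the U7 particle, with 97.1 ± 21.7 in depleted and 135 ± 13.1 in sham libraries (log2 change -0.49 ± 0.15, limma adjusted p = 0.0372). In mesenchyme it was Lsm11, a protein specific to the U7 particle, with 47.0 ± 6.16 and 64.8 ± 3.73 (-0.46 ± 0.14, adjusted p = 0.0387). Slbp, the stem-loop binding protein, named here for its role, had 389 ± 35.6 in depleted, 422 ± 15.5 in irradiated and 418 ± 16.9 in sham epithelium and was not called in any comparison. Of 18 tested histone chaperones and the histone acetyltransferase Hat1, 1 fell in depleted against sham epithelium, Supt16, a subunit of the chaperone FACT (802 ± 23.4 in depleted and 912 ± 27.1 in sham libraries, -0.18 ± 0.05, limma adjusted p = 0.0244). Of all genes, 4.76% were called lower there. None of 17 passed in mesenchyme by limma or edgeR, and DESeq2 called 1 in irradiated against sham. At an unadjusted limma p under 0.05 there were 3, 4 and 2 in irradiated against sham, depleted against irradiated and depleted against sham mesenchyme. The shares of all genes were 21.0%, 17.9% and 29.2%.

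Among genes of DNA replication and the cell cycle, calls in depleted against sham libraries were mostly falls in epithelium and all rises in mesenchyme. In depleted against sham epithelium 5 of 35 tested fell and 1 rose, with a median log2 change of -0.32 (edgeR called 6 and DESeq2 7), beside 4.76% of all genes lower and 6.52% higher. The replication licensing factor Cdc6 had 28.5 ± 3.92 in depleted and 49.7 ± 11.8 in sham libraries (-0.77 ± 0.22, limma adjusted p = 0.0279). Bub1, a mitotic checkpoint kinase, had 49.8 ± 9.95 and 97.6 ± 17.0 (-0.96 ± 0.17, adjusted p = 0.00174). Ccna2, Pola1 and Mcm5 fell too, and Cdk2 rose (0.34 ± 0.09, adjusted p = 0.0153). Depleted against sham mesenchyme had 7 of 33 that rose and none that fell, with a median of 0.25 (edgeR 7, DESeq2 6), beside 8.51% of all genes higher. Uhrf1, which binds replicating DNA, had 20.1 ± 4.96 in depleted and 6.10 ± 0.749 in sham libraries (1.55 ± 0.38, adjusted p = 0.0122), and Mki67, the proliferation marker, had 91.9 ± 27.3 and 48.2 ± 15.7 (0.91 ± 0.28, adjusted p = 0.045). Tk1, Top2a, Mcm6, Gins2 and Ccne1 also rose. The most abundant members of the list, Pcna and Rrm1, were not called in either compartment. Over its 38 genes the mean log2 level per library was 5.03 to 5.48 in depleted, 5.25 to 5.76 in irradiated and 5.46 to 5.79 in sham epithelium, and 4.97 to 5.12, 4.73 to 4.97 and 4.51 to 4.80 in mesenchyme. The difference between compartments was not tested for this list, and whether the proliferation genes and the histone calls are linked was not tested.

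Among 11 histone genes outside the clusters, H2afj stood out. This H2A variant gene had 641 ± 52.4 in depleted, 624 ± 34.7 in irradiated and 481 ± 35.4 in sham epithelium, and rose in both comparisons with sham (log2 changes 0.41 ± 0.07, limma adjusted p = 0.00144, and 0.38 ± 0.07, adjusted p = 0.00636). In mesenchyme it had 197 ± 12.1 in depleted, 136 ± 17.4 in irradiated and 95.7 ± 7.95 in sham libraries and rose in all 3 comparisons, by 1.04 ± 0.11 in depleted against sham (adjusted p = 1.68e-05). H3f3a and H3f3b encode the replacement histone H3.3: H3f3a fell in depleted against sham epithelium (1471 ± 54.0 against 1663 ± 7.198) and H3f3b rose in depleted against sham mesenchyme (4276 ± 173 against 3399.7 ± 289). Cenpa, the centromeric H3 variant, fell in depleted against sham mesenchyme (51.1 ± 20.6 against 91.1 ± 6.87, limma adjusted p = 0.0225). Of the 11, 1 rose and 1 fell in depleted against sham epithelium, beside 6.52% of all genes higher and 4.76% lower. In depleted against sham mesenchyme 2 rose and 1 fell, beside 8.51% higher and 6.70% lower. Of all genes, 2.26% and 2.64% were higher in irradiated against sham epithelium and mesenchyme, and 2.02% in depleted against irradiated mesenchyme.

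Many clustered genes are annotated with transcripts that run on past the hairpin. In 21 members the annotated transcript went on for at least 100 bases behind it, 17 of them tested in epithelium and 13 in mesenchyme, and these carried 64.6% and 62.2% of all member counts. The distance was 840 bases in Hist1h1c, 4884 in Hist1h1d, 155 in Hist1h2bg, 377 in Hist2h3c2 and 2445 in Hist4h4, against 30 in Hist1h2bk and 31 in Hist1h4n. The other members include those with no hairpin match, such as Hist1h2bc with 2 exons and Hist2h2be with a transcript of 2620 bases. They are thus not a set annotated to end near the hairpin. Against sham, depleted epithelium had a median log2 change of 0.07 over the 17 with such transcripts, 1 of them called lower, and -0.30 over the other 26, of which 4 were called lower. Of all genes, 4.76% were called lower there. In depleted against irradiated epithelium 15 of the 17 were positive, with a median of 0.19, and 14 of the other 26, with a median of 0.02. Against sham, depleted mesenchyme had medians of 0.07 over 13 members, 3 of them called higher, and 0.13 over the other 22, with 1 called higher. Of all genes, 8.51% were called higher there. A difference between these sets was not tested in either compartment. The counts do not separate reads before and behind the hairpin, so these groups differ in annotation and not in a measured message end.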

How the data were processed

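Per the labels' protocols, total RNA of sorted lung cells underwent removal of ribosomal RNA before library preparation with the KAPA RNA HyperPrep kit. The submitters' processing notes name cutadapt 1.5, STAR 2.2.2a, SAMtools 1.8, RSEM 1.3.0, DESeq2 and GRCm38, with no order or role. The authors deposited 1 table per compartment in which each value is a signal, a normalised gene count. Every value was a whole multiple of 1 step per library (100% came out whole), so reads were recovered from the steps. Reads shared by near-identical genes may be split between them in such counts, and the handling of strand is not given in the sources used here.

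Gene names and exons came from GENCODE M21 (48435 of 48795 rows matched), promoters from RefSeq. Genes with at least 10 in at least 4 of 12 libraries were tested on log2(normalised count + 1) with limma 3.58.1 (trend, robust) in R 4.3.3. Each table was 1 fit of 3 groups, with Benjamini-Hochberg adjustment over all 16626 or 16624 genes. A call is an adjusted p under 0.05. Fold changes of low genes depend on the added 1, and with libraries at 0 they can come out larger than by a count model. Epithelial Hist1h2bk, depleted against sham, had a log2 change of -2.47 by limma and -1.77 by DESeq2. The compartments were compared as an interaction over 15092 genes, with no term for the mouse. The fits were tested on simulated data. Alternatives were edgeR 4.0.16 and DESeq2 1.42.0 on recovered reads, other pseudocounts, filters and scaling, library weights, length and GC trends, a replicate block, a leukocyte covariate and leaving out each library. Each library is 1 labelled mouse sample, and p-values measure the spread between these. Counting intervals do not include other error.

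Members named with all values were those called, the 2 highest per kb in each family, and the 3 largest and smallest changes per comparison; of the other lists, called genes and the 2 of highest mean. The members, the lists of histone message makers, chaperones, replication-independent histones, S phase genes, other RNAs with no poly(A) tail and cell markers, and the tests were chosen with earlier results of these data known.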

Additional observations from a re-analysis of the deposited data

Results flagged for a closer look

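In 14 of 192 groups of 4 libraries, 1 library lay apart from the other 3 beyond the 95% critical value of Dixon's test, which chance alone gives in about 1 of 20 groups. In epithelial cells the low libraries were irradiated replicate 1 for Hist1h2ac (0.979, others 12.6 to 12.9) and irradiated replicate 2 for Hist1h4m (0, others 34.0 to 39.4). The high ones were depleted replicate 2 for Hist1h4a (113, others 73.4 to 78.6), depleted replicate 1 for Hist1h4n (25.8, others 0) and irradiated replicate 2 for Hist2h3c2 (14.2, others 9.65 to 9.79). Of the epithelial family sums, sham replicate 2 was high for H2A (769, others 727 to 731), irradiated replicate 1 for H2B (735, others 625 to 632) and irradiated replicate 3 for H4 (2090.0, others 1756 to 1793).

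In mesenchymal cells Hist1h2bl was at 0 in depleted replicate 4 (others 31.9 to 34.2), Hist1h4h at 144 in sham replicate 1 (others 190.4 to 193), and Hist2h2ab at 3.09 in irradiated replicate 1 (others 10.2 to 10.98) and at 0 in sham replicate 1 (others 8.08 to 8.32). Hist1h2bb was high in depleted replicate 2 (25.2, others 10.2 to 12.1) and Hist2h2bb in irradiated replicate 2 (118, others 80.5 to 85.4).

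The change of Hist1h2bk between depleted and sham mice differed between the compartments by -3.35 on the log2 scale, epithelial minus mesenchymal (limma, adjusted p = 0.0371).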

How the results depend on the processing

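Of the named changes, 943 values under the alternatives kept direction and side of the threshold, 73 lost and 6 gained a call, and 21 turned round. Called members in irradiated against sham epithelium (0) were 2 with library weights and 1 with length and GC trends removed, with or without the replicate block; in depleted against irradiated epithelium (0) DESeq2 gave 2. In depleted against sham epithelium (5) there were 1 at a mean of at least 50, 3 with the replicate block, 1 with the leukocyte covariate and 1 among members with at least 50% of windows their own, chosen after seeing the data. In irradiated against sham mesenchyme (1) trend removal gave 2, with or without the block, and the covariate 0; in depleted against sham mesenchyme (4) each of these gave 2. The interaction for depleted against sham (1) gave 0 with pseudocount 0.5, no filter, a mean of at least 50, the covariate or own windows, and 2 with the block, alone or with trend removal. Median log2 changes moved in irradiated against sham epithelium (-0.24) to -0.15 at a mean of at least 50 and -0.10 with the covariate, and in depleted against sham epithelium (-0.09) to 0.066 and 0.022. Trend removal, with or without the block, gave 0.27 in depleted against irradiated epithelium, -0.23 in irradiated against sham and -0.048 in depleted against sham mesenchyme. The cause of these shifts was not tested.

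Leaving out 1 library gave 0 to 1, 0 to 1 and 2 to 6 called epithelial members for irradiated against sham, depleted against irradiated and depleted against sham, with medians of -0.28 to -0.18, 0.05 to 0.15 and -0.16 to -0.04. In mesenchyme it gave 0 to 1, 0 to 0 and 2 to 4, with medians of -0.11 to 0.04, 0.15 to 0.25 and 0.05 to 0.14, and for the interaction 0 to 1, 0 to 0 and 0 to 3.

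Direction turned with the covariate for Hist1h3d in depleted against sham epithelium (-0.47), Hist1h4m in depleted against sham mesenchyme (-0.47) and Hist1h1d in irradiated against sham mesenchyme (-0.10). Mesenchymal Hist1h2bl turned in depleted against irradiated with edgeR (0.033) and DESeq2 (0.019), and in depleted against sham with pseudocount 8 (0.042), edgeR (0.26), DESeq2 (0.28) and library weights (0.26). Mesenchymal Hist1h4n turned in irradiated against sham with edgeR (-0.062) and DESeq2 (-0.020). Leaving out 1 library crossed 0 in irradiated against sham for epithelial Hist1h2ad (-0.40 to 0.98) and Hist1h3h (-0.24 to 1.22), turned by sham replicate 2, and for mesenchymal Hist1h4m (-2.11 to 0.10, irradiated replicate 4), Hist1h4n (-0.58 to 1.61, sham replicate 3) and Hist2h2ab (-0.058 to 1.11, sham replicate 1). In mesenchyme it did so in depleted against irradiated for Hist1h2bl (-1.27 to 0.45, depleted replicate 4) and Hist2h2ab (-0.65 to 0.0048, depleted replicate 1), and in depleted against sham for Hist1h2bl (-0.84 to 0.87, depleted replicate 4), Hist1h4n (-0.22 to 1.98, sham replicate 3) and Hist2h2aa1 (-2.11 to 0.12, depleted replicate 3).

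Within a compartment replicate numbers did not pair the samples. Deviations of same-numbered libraries correlated at r = -0.1115 to 0.1522 in epithelium and -0.05234 to 0.1721 in mesenchyme, over 0.1 in 1 and 3 of 12 pairs. Between the compartments of a treatment they correlated at -0.0367 to 0.2548, over 0.1 in 7 of 12 pairs, and 9 of 12 epithelial libraries correlated best with the mesenchymal library of their own number; the labels do not say that a number marks 1 mouse. With that block the interaction for depleted against sham kept Hist1h2bk (-3.35, limma adjusted p = 0.0160) and added Hist1h2bc (-0.58, 0.0393). A count of 0 allows up to 2.36 to 3.81 on the normalised scale. This is an upper limit for a 0 and no detection floor, since lower values such as 0.979 were counted.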

Other observations

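Among the untested members was Hist1h1t, the testis linker histone gene, at 0 to 7.63 in epithelial and 0 to 3.09 in mesenchymal libraries. Hist1h1b, a linker histone gene of dividing cells, stood at 0 to 6.73 and 1.01 to 17.5. The highest single values of untested members were 24.4 for Hist1h3i in epithelium and 21.6 for Hist1h3b in mesenchyme.

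Further calls in the marker lists were as follows. In irradiated against sham epithelium 4 of 8 tested neutrophil, 2 of 7 macrophage, 1 of 5 lymphocyte, 5 of 13 endothelial and 1 of 6 erythroid and platelet markers rose. Of all genes, 2.26% were called higher there by limma. In depleted against sham epithelium 5, 5, 0, 2 and 1 of these rose, beside 6.52% of all genes higher and 4.76% lower. Of the 12 epithelial markers 1 rose and 3 fell there, and of the 12 mesenchymal markers 4 rose and 1 fell. In mesenchyme 4 of 10 tested neutrophil, 4 of 11 macrophage, 2 of 7 lymphocyte and 1 of 13 endothelial markers rose in irradiated against sham libraries, as did 6, 7, 1 and 2 of them in depleted against sham libraries. Of all genes, 2.64% and 8.51% were called higher in these comparisons. None of 6 erythroid and platelet markers passed in mesenchyme by limma, edgeR or DESeq2. At an unadjusted limma p under 0.05 there was 1 in each comparison with sham, beside 21.0% (irradiated) and 29.2% (depleted) of all genes. In depleted against irradiated mesenchyme 2 of 10 neutrophil markers, Csf3r and Cxcr2, fell, beside 0.674% of all genes lower. Other RNAs with no poly(A) tail also fell in depleted against irradiated epithelium, 2 of 9 by limma, 3 by edgeR and 6 by DESeq2. Of all genes, 0.271% were called lower by limma and 1.74% in either direction by DESeq2. Rnu12 had 29.7 ± 9.75 in depleted and 116 ± 45.5 in irradiated libraries (-1.89 ± 0.28, limma adjusted p = 0.00755), and Snora73b had 64.6 ± 15.4 and 127 ± 4.86 (-0.99 ± 0.16, adjusted p = 0.00756). In depleted against sham mesenchyme 1 of 7, Scarna2, fell, beside 6.70% of all genes lower.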
